A study of Homo sapiens with 4 samples.

Results

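Peaks of histone H4 lysine 5 lactylation (H4K5la) were described along chromosome 17 below 78 Mb, with the long arm (17q) set against the short arm (17p). Members were all deposited peaks on chromosome 17 with a centre below 78 Mb on the build hg38. Centres beyond 27.0 Mb were counted as 17q and centres before 22.7 Mb as 17p, and this rule uses no measured value, although the stretch was proposed with earlier results of these data known. There were 203 such peaks in the DNAJC12KO list of 2755 and 141 in the WT list of 1943, or 344 of 4698 in all. On 17q lay 157 DNAJC12KO and 116 WT peaks, and on 17p lay 45 DNAJC12KO and 25 WT peaks. A single DNAJC12KO peak and 0 WT peaks fell between the limits of the arms. The last DNAJC12KO peak inside the stretch was chr17:77862017-77862403 (fold 3.21), and the first outside it was chr17:78172976-78173621 (fold 3.23). The last WT peak inside was chr17:77852933-77853568 (fold 3.31), and the first outside was chr17:78121793-78122434 (fold 3.85).

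The cells were SH-SY5Y, an established human neuroblastoma line, either with DNAJC12 knocked out (DNAJC12KO) or wild type (WT). Each genotype had 1 H4K5la immunoprecipitation and 1 input, 4 libraries in all. All cells were fixed in 1% formaldehyde for 10 minutes and sonicated for 8 minutes, 2 μg of antibody was used, and DNA was fragmented to 300 bp. Whether the knockout was 1 clone or a pool is not given in the labels. The lists hold no read counts, so depth is unknown, and with 1 library per genotype no difference between genotypes has a replicate check. All intervals are exact 95% intervals and cover counting error only.

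Lactylation attaches a lactyl group, derived from lactate, to lysines of histones, and it is studied as a mark that ties glycolysis to chromatin. DNAJC12 is a co-chaperone of the hydroxylases that act on phenylalanine, tyrosine and tryptophan, among them the rate-limiting enzyme of dopamine synthesis. Gain of the distal part of 17q is a common chromosome change in neuroblastoma, and SH-SY5Y is known to carry extra material of 17q and an extra chromosome 7. Copy number was not measured in these libraries. The name gained 17q is therefore a name from the literature on the line, and it could not be checked here.

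The promoters that a peak covered are shown because they are the annotated starts at which the lists have a peak; a peak is far wider than a base, so it does not place the mark at a base. The 250 bases before an annotated start were known for 753 of the 1053 protein-coding genes on the stretch, and a peak reached into 5 of them. No share over the genome is given for this count. DNAJC12KO peaks reached 2, those of ABR, a regulator of small GTPases, and STH, an intronless gene inside an intron of the tau gene MAPT. WT peaks reached 3, those of TBX4, a limb transcription factor, DNAI2, a dynein arm subunit of cilia, and SEPTIN9, a septin GTPase. Sequences are from RefSeq on GRCh38.p14, 5′ to 3′ on the strand of the gene, with the bases inside the peak in capitals.

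ABR promoter: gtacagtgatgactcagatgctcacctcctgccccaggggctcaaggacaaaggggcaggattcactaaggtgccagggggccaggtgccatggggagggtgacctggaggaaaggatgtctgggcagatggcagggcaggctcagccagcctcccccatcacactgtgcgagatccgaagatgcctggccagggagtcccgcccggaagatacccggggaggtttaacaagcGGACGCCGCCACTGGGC
STH promoter: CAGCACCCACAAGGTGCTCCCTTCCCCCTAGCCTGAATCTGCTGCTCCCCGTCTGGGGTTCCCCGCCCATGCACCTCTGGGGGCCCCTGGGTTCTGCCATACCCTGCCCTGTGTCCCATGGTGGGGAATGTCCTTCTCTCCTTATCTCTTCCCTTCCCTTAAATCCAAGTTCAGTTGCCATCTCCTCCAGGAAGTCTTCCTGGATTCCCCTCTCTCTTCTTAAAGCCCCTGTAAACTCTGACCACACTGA
TBX4 promoter: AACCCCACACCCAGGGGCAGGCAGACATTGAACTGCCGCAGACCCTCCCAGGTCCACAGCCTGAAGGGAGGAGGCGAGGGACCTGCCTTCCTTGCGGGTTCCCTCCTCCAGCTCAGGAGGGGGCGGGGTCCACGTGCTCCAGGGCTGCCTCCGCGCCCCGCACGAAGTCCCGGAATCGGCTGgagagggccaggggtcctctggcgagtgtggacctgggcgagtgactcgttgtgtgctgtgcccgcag
DNAI2 promoter: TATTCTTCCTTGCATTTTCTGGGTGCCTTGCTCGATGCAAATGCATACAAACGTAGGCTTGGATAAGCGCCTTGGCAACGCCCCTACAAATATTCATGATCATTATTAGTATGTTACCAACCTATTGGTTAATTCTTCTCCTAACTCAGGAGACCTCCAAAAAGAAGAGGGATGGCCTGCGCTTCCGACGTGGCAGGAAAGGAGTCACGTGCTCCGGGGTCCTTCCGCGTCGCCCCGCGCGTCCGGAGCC
SEPTIN9 promoter: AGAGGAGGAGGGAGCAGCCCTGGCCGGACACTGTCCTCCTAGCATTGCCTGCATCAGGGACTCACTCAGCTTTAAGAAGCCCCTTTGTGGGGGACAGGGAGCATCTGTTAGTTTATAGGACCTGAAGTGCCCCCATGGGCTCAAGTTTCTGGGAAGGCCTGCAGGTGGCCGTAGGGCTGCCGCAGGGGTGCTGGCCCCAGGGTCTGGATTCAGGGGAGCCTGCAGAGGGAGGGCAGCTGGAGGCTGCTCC

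The ABR sequence was chr17:1126573-1126822 on the minus strand, with 17 of its bases inside a peak of fold 3.73. The STH sequence was chr17:45999000-45999249 on the plus strand, and a peak of fold 3.46 covered all 250 bases. The TBX4 sequence was chr17:61456238-61456487 on the plus strand, with 182 bases inside a peak of fold 3.61. The DNAI2 sequence (chr17:74273984-74274233, fold 3.70) and the SEPTIN9 sequence (chr17:77475385-77475634, fold 3.64) lay wholly inside their peaks on the plus strand. The starts used for ABR, TBX4 and SEPTIN9 were those of internal transcripts, away from the ends of the gene record. In DNAI2 the ratio of observed to expected CpG was 0.966, against 0.321 in ABR, 0.112 in STH, 0.508 in TBX4 and 0.127 in SEPTIN9, and the median over all 753 promoters was 0.731. The letters GGGCGG, searched on both strands, stood in the ABR, STH and TBX4 sequences and in 56.3% of the 753. CCAAT stood in that of DNAI2 and in 35.2% of all, and TATAAA in that of SEPTIN9 and in 12.5% of all.

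Peaks were denser on 17q than on 17p in both genotypes. The DNAJC12KO list had 3.08 peaks per Mb on 17q (2.61 to 3.60) and 1.98 on 17p (1.45 to 2.65), a ratio of 1.55 (1.11 to 2.21). The WT list had 2.27 per Mb on 17q (1.88 to 2.73) and 1.10 on 17p (0.713 to 1.63), a ratio of 2.07 (1.33 to 3.32). Counted per protein-coding gene, the ratio was 1.61 (1.15 to 2.29) in DNAJC12KO cells and 2.14 (1.38 to 3.44) in WT cells. No interval of these ratios held 1, and whether the ratio differed between the genotypes was not tested. With peaks less than 10 kb apart joined, the ratio per Mb was 1.34 (0.926 to 1.96) in DNAJC12KO cells, so its interval held 1, and 1.68 (1.04 to 2.82) in WT cells. With a fold of at least 4 it was 1.17 (0.497 to 3.05) in DNAJC12KO cells and 2.82 (0.830 to 14.9) in WT cells. For peaks whose −log10 q reached 2 it was 1.26 (0.474 to 3.91) in DNAJC12KO cells and 4.45 (0.633 to 193) in WT cells. All 4 of these intervals held 1. The whole stretch held 7.40% (6.45% to 8.44%) of the DNAJC12KO peaks on chromosomes 1 to 22, X and Y, and 7.28% (6.16% to 8.53%) of the WT peaks. It held 5.30% of the 19866 protein-coding genes.

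The density of 17q was not even, and most of its excess over 17p came from the last few Mb. The single split of 17q with the highest Poisson likelihood lay at 73.3 Mb in DNAJC12KO cells, with 13.3 peaks per Mb beyond it and 2.05 before it. For WT cells the split lay at 72.6 Mb, with 12.1 peaks per Mb beyond it and 1.12 before it. Splits up to 2 log units less likely reached from 73.3 to 73.4 Mb in DNAJC12KO cells and from 72.6 to 74.9 Mb in WT cells. Over both lists together the split was at 73.3 Mb. These splits were chosen on the counts themselves and are given as a description.

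**Figure D1:**
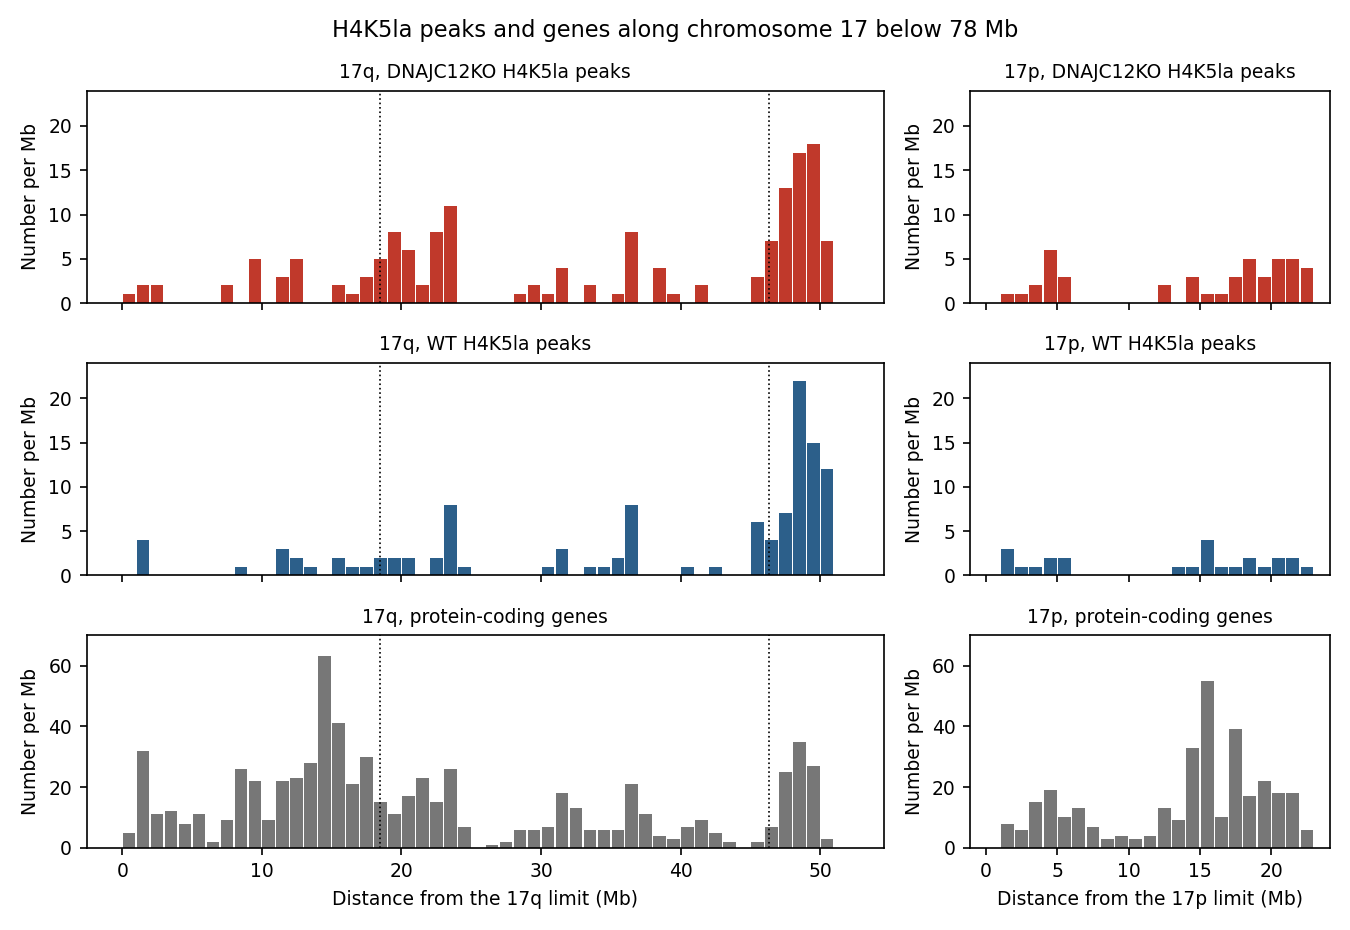
Number of H4K5la peaks per 1 Mb in DNAJC12KO cells (top row) and WT cells (middle row), and of protein-coding genes (bottom row), against the distance in Mb from the centromere-side limit of 17q (left) and 17p (right). Dotted lines mark the steps in background and in density, and the tallest bars, 18 peaks in DNAJC12KO cells and 22 in WT cells, lie beyond the second line.

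The second step concerned not the number of peaks but the background under them. For each peak a local background, in fragments after the scaling of the authors, was solved from the fold and the p-value of the peak caller. On 17q the best single step in this value lay between centres at 44.8 and 45.7 Mb in DNAJC12KO cells, with a median of 2.20 beyond it and 1.67 before it. The WT step lay between 47.0 and 47.8 Mb, with a median of 2.03 beyond it and 1.59 before it. The medians beyond and before the step stood in a ratio of 1.32 in DNAJC12KO cells and 1.27 in WT cells, and over both lists the step lay between 45.1 and 45.7 Mb. The 2 steps divide 17q into a proximal segment from 27.0 to 45.4 Mb with 385 protein-coding genes, a middle segment to 73.3 Mb with 245, and a distal segment to 78 Mb with 91. On 17p there were 332 genes. This step was chosen on the background values themselves, so a difference in background between the proximal and the middle segment is built in and is given as a description.

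By its median, the background of the proximal segment lay near that of 17p, although the step was chosen to make this segment low. The median background was 1.67 (1.53 to 1.83) in the proximal segment, 2.30 (2.19 to 2.44) in the middle and 2.13 (2.04 to 2.24) in the distal segment, against 1.60 (1.53 to 1.68) on 17p, in DNAJC12KO cells. In WT cells it was 1.58 (1.47 to 1.71), 2.05 (1.91 to 2.17) and 2.01 (1.90 to 2.07) in the same order, against 1.48 (1.37 to 1.55) on 17p. The intervals of the middle and distal segments lay above those of 17p in both genotypes. Although 17p took no part in choosing the step, those segments were cut where background was high, so part of this contrast is built in. The limits of the whole of 17q did not come from the step. Its median background was 2.15 (2.08 to 2.20) in DNAJC12KO cells and 1.97 (1.84 to 2.05) in WT cells. A background above 2 was found for 101 of 131 DNAJC12KO peaks (77.1%) in the middle and distal segments together, against 5 of 71 (7.04%) on 17p and the proximal segment. The same held for 54 of 100 WT peaks (54.0%), against 4 of 41 (9.76%). In the rest of the genome the share above 2 was 29.7% of DNAJC12KO and 21.2% of WT peaks. Both groups of segments were formed at the step chosen on these same values, so part of the contrast between their shares is built in.

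The lowest background in the whole genome was 1.50 for DNAJC12KO peaks and 1.35 for WT peaks, and it recurred at many peaks. Within 5% of that lowest value lay 12 of 26 DNAJC12KO peaks in the proximal segment, 0 of 69 in the middle, 1 of 62 in the distal segment and 20 of 45 on 17p, against 24.7% in the rest of the genome. Of the WT peaks it was 1 of 16, 0 of 40, 0 of 60 and 9 of 25, against 25.2% in the rest of the genome. At a count of 0 the exact interval reached 5.21% in the middle segment of DNAJC12KO cells, and in WT cells 8.81% in the middle and 5.96% in the distal segment. The step was chosen on the background values, so part of the contrast across it is built in, and these intervals do not allow for that choice. Chromosomes with few peaks were not compared, which left 20 other chromosomes in DNAJC12KO cells and 19 in WT cells. Among these the highest median background was that of chromosome 7, at 2.16 in DNAJC12KO cells and 1.93 in WT cells. Chromosome 1 had 1.90 and chromosome 2 had 1.81 in DNAJC12KO cells, and in WT cells they had 1.81 and 1.86. No further chromosome among those compared exceeded 1.70 in DNAJC12KO cells or 1.66 in WT cells. The part of copy number in these values was not tested.

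**Figure D2:**
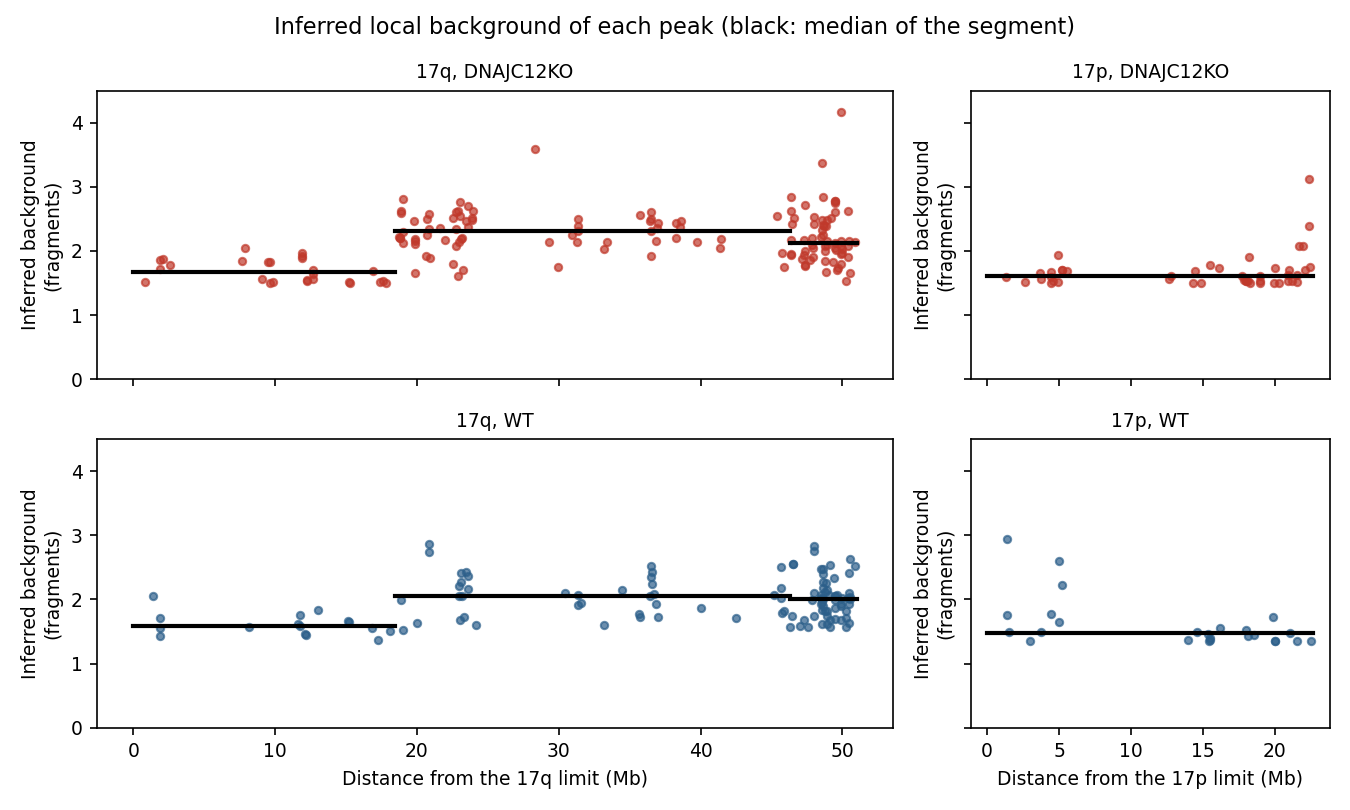
Inferred local background in fragments of each H4K5la peak in DNAJC12KO cells (top) and WT cells (bottom), against the distance in Mb from the centromere-side limit of 17q (left) and 17p (right). Black lines are the medians of the segments, which lie at 2.30 and 2.13 in the middle and distal segments of 17q in DNAJC12KO cells, against 1.60 on 17p.

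The proximal segment was the richest in genes and the poorest in peaks. It had 26 DNAJC12KO and 16 WT peaks, or 1.41 (0.921 to 2.07) and 0.868 (0.496 to 1.41) per Mb. The middle segment had 69 DNAJC12KO and 40 WT peaks, or 2.47 (1.93 to 3.13) and 1.43 (1.02 to 1.95) per Mb. The distal segment had 62 DNAJC12KO and 60 WT peaks, or 13.2 (10.1 to 16.9) and 12.8 (9.75 to 16.5) per Mb. Set against 17p per Mb, the proximal ratio was 0.711 (0.421 to 1.18), the middle 1.25 (0.846 to 1.86) and the distal 6.66 (4.47 to 10.0) in DNAJC12KO cells. In WT cells the ratios were 0.788 (0.393 to 1.54), 1.30 (0.771 to 2.24) and 11.6 (7.17 to 19.3). Per Mb, the interval of the ratio left out 1 only for the distal segment, in both genotypes. The border of that segment was chosen on these counts to give the sharpest contrast. Its intervals do not allow for that choice, so its ratios are a description and part of them is built in.

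Per gene the picture was different for the middle segment, which is gene-poor. Peaks per 100 protein-coding genes numbered 6.75 in the proximal, 28.2 in the middle and 68.1 in the distal segment, against 13.6 on 17p, in DNAJC12KO cells. In WT cells they numbered 4.16, 16.3 and 65.9, against 7.53 on 17p. The ratio of the middle segment to 17p was 2.08 (1.41 to 3.10) in DNAJC12KO cells and 2.17 (1.28 to 3.73) in WT cells. That of the proximal segment was 0.498 (0.295 to 0.825) in DNAJC12KO cells and 0.552 (0.275 to 1.08) in WT cells. When the split of 17q was searched per gene, it lay at 45.7 Mb in DNAJC12KO cells and at 69.5 Mb in WT cells.

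**Figure D3:**
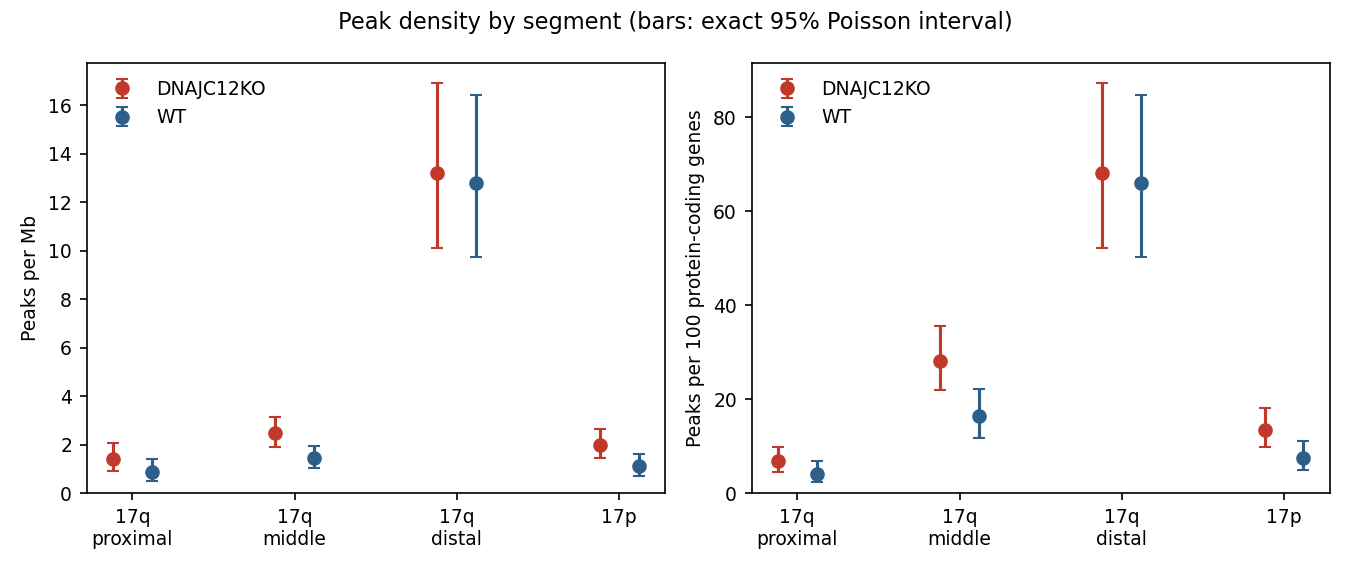
H4K5la peaks per Mb (left) and per 100 protein-coding genes (right) in the segments of 17q and on 17p, with DNAJC12KO cells in red and WT cells in blue; bars are exact 95% Poisson intervals. The distal segment stands at 13.2 and 12.8 peaks per Mb, above all other segments, while the middle segment stands above 17p per gene.

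The median fold was lower on 17q than on 17p in both genotypes. Fold, the enrichment of a peak over its background, had a median of 3.54 (3.48 to 3.61) on 17q and 3.73 (3.65 to 3.81) on 17p in DNAJC12KO cells. In WT cells it was 3.64 (3.57 to 3.69) on 17q and 3.87 (3.75 to 3.93) on 17p. Neither pair of intervals overlapped. The proximal segment had medians of 3.75 in DNAJC12KO cells and 3.91 in WT cells, the middle 3.47 and 3.59, and the distal 3.53 and 3.64. A fold of at least 4 was reached by 21 of 157 peaks (13.4%) on 17q and 8 of 45 (17.8%) on 17p in DNAJC12KO cells, against 17.3% of all DNAJC12KO peaks. Among WT peaks it was reached by 19 of 116 (16.4%) on 17q and 3 of 25 on 17p, against 28.3% of all WT peaks. Median −log10 q was 1.46 on 17q and 1.43 on 17p in DNAJC12KO cells, and 1.42 and 1.40 in WT cells, with overlapping intervals. Median width was 465 bp on 17q and 509 bp on 17p in DNAJC12KO cells, and 429 and 465 bp in WT cells. Fold and background are tied to each other near a fixed q threshold, so the fold gives no second measure of the step.

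**Figure D4:**
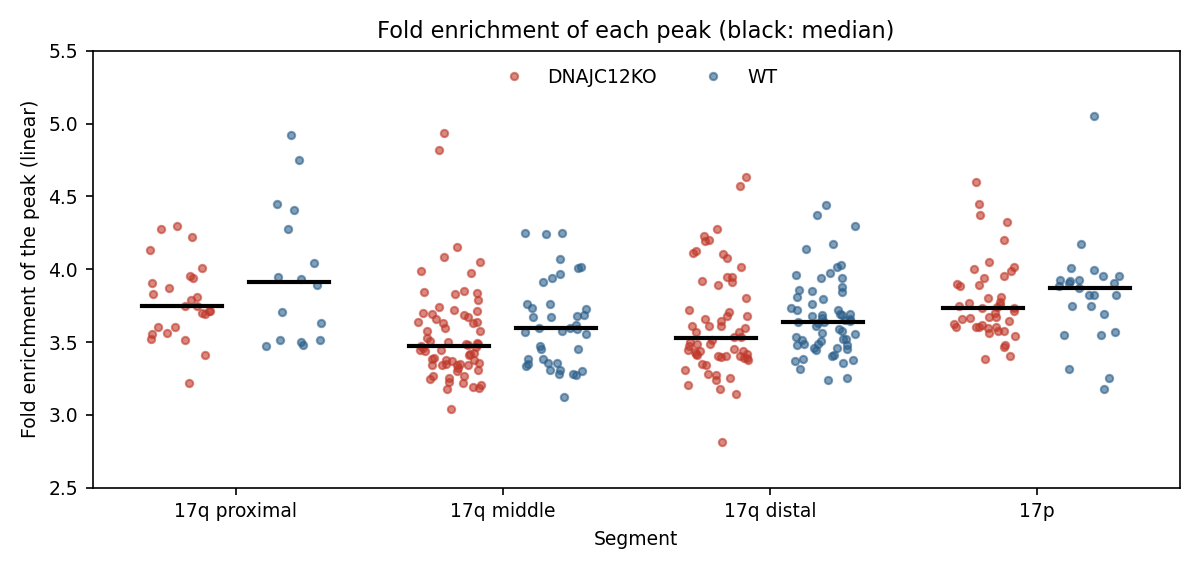
Fold enrichment (linear, axis from 2.5) of each H4K5la peak in the segments of 17q and on 17p, with DNAJC12KO cells in red left of WT cells in blue and medians in black. The medians of the middle and distal segments, 3.47 and 3.53 in DNAJC12KO cells and 3.59 and 3.64 in WT cells, lie below those of 17p at 3.73 and 3.87.

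Between the genotypes the number of peaks on the stretch stood at 203 in DNAJC12KO cells and 141 in WT cells, a ratio of 1.44 (1.16 to 1.80). The rest of the genome had 2540 and 1796 peaks, a ratio of 1.41 (1.33 to 1.50). The ratio was 1.80 (1.08 to 3.06) on 17p and 1.35 (1.06 to 1.74) on 17q. Within 17q it was 1.63 (0.839 to 3.24) in the proximal, 1.73 (1.15 to 2.61) in the middle and 1.03 (0.713 to 1.50) in the distal segment. All these intervals held the ratio of the rest of the genome. When the longer list was shortened to the length of the WT list by −log10 q, 17q kept 103 DNAJC12KO peaks against 116 WT peaks, a ratio of 0.888. The direction on 17q thus depended on the length of the lists.

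Few peaks of the 2 lists lay in the same place. There were 12 overlapping pairs, or 5.91% (3.09% to 10.1%) of the DNAJC12KO members, against 6.31% of all DNAJC12KO peaks. They were 8.51% (4.48% to 14.4%) of the WT members, against 8.88% of all WT peaks. On 17p the pairs lay in ABR, in DLG4, which encodes the postsynaptic scaffold PSD-95, and in the overlapping genes FAM83G and SLC5A10. On 17q proximal there was 1 pair, in FLOT2, which encodes a membrane scaffold protein (fold 3.83 in DNAJC12KO cells and 3.94 in WT cells). On 17q middle they lay in SMARCD2, SCN4A and SLC39A11, and on 17q distal in HID1, RECQL5, ITGB4 and, as 2 pairs, RHBDF2. FAM83G, SLC5A10, SCN4A and SLC39A11 were named after their values were seen. Within 10 kb of a peak of the other list lay 60 DNAJC12KO peaks (29.6%) and 56 WT peaks (39.7%), close to the 29.7% and 40.2% over the whole genome.

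Most peaks lay inside gene records. Of the centres, 64.5% of DNAJC12KO and 66.7% of WT peaks lay inside a protein-coding gene and more than 3 kb from its ends. A further 21.7% of DNAJC12KO and 27.0% of WT centres lay within 3 kb of the end of a protein-coding gene, and 10.8% and 4.96% lay outside annotated genes. Gene ends took 24.2% (17.7% to 31.7%) of the centres on 17q and 13.3% (5.05% to 26.8%) on 17p in DNAJC12KO cells. In WT cells they took 29.3% (21.2% to 38.5%) on 17q and 16.0% (4.54% to 36.1%) on 17p, and in both genotypes the intervals of the arms overlapped.

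A peak within 3 kb of either end was carried by 54 of 1053 protein-coding genes (5.13%) in DNAJC12KO cells, against 3.86% of all genes in the genome. For WT peaks it was 52 genes (4.94%), against 3.2%. Both lists shared 8 of these genes, leaving 46 with a DNAJC12KO peak alone and 44 with a WT peak alone. The shared genes were 14.8% of the DNAJC12KO and 15.4% of the WT genes of the stretch, against 20.9% and 25.2% over the whole genome, where 160 genes were shared. On 17q there were 45 DNAJC12KO and 46 WT genes of 721, and on 17p 9 and 6 of 332, of which 0 were shared. In the distal segment 13 of 91 genes carried a DNAJC12KO peak at an end and 20 a WT peak, 6 of them the same genes. In the proximal segment 12 of 385 genes did in each list, and 0 were shared. With peaks inside the record added, 132 genes (12.5%) carried a DNAJC12KO peak, against 8.26% in the genome, and 107 (10.2%) a WT peak, against 6.49%, with 44 shared.

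On the stretch, the marked end was more often the far end than the start. No genome-wide counts of marked ends or starts are given, so those below cannot be read as particular to the stretch. The strand was known for 35 of the DNAJC12KO genes, of which 4 had the peak at the start side alone, 26 at the other end alone and 5 at both. For 34 of the WT genes the counts were 9, 18 and 7. At an annotated start, 12 of 753 genes had a DNAJC12KO peak within 3 kb and 20 had a WT peak, and 1 gene, SMARCD2, a subunit of SWI/SNF chromatin remodelling complexes, was in both. Promoters with a DNAJC12KO peak near the start had a median GC content of 58.6% and those with a WT peak 67.6%, against 62.4% over 722 promoters with neither. The ratio of observed to expected CpG was 0.399 for DNAJC12KO and 0.671 for WT, against 0.738 for those with neither.

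Peaks were ranked by −log10 q, so that the strongest is the one with the highest. On 17q the strongest DNAJC12KO peak lay inside CRHR1, the receptor of corticotropin-releasing hormone, at chr17:45793300-45793797, with a fold of 4.82 and a −log10 q of 3.33. It lies just beyond the background step, and the strongest of the WT list in that gene had a fold of 3.34. Close to it, MAPT, which encodes the microtubule protein tau, held 3 DNAJC12KO peaks, the strongest of fold 3.97, and 1 WT peak of fold 3.60. Next in −log10 q after CRHR1 were DNAJC12KO peaks outside genes, 15.2 kb from TMEM92 (fold 4.94) and 42.7 kb from RPL38, a ribosomal protein gene (fold 4.57). The strongest WT peak on 17q was chr17:39107086-39107394 in PLXDC1, a plexin domain gene of endothelial cells (fold 4.92, −log10 q 2.65). FLOT2 followed in the WT list with a fold of 4.75, at chr17:28885893-28886191. This peak is not part of the pair named above but lies close to it, as the WT peak of the pair spans chr17:28884128-28884909. On 17p the strongest WT peak lay in PRPF8, a core splicing factor (fold 5.05, −log10 q 2.82), where the DNAJC12KO list had none. The strongest DNAJC12KO peak on 17p lay in ITGAE, the integrin that binds E-cadherin (fold 4.60, −log10 q 2.32), where the WT list had none. LLGL1, a cell polarity gene, was among the first of both lists on 17p, with a fold of 4.37 in DNAJC12KO cells and 3.99 in WT cells.

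Genes with the most peaks lay in the distal segment, apart from 1. SEPTIN9 held 4 DNAJC12KO and 8 WT peaks over 219 kb. MGAT5B, an N-acetylglucosaminyltransferase of brain, held 7 DNAJC12KO and 4 WT peaks over 82.0 kb. RHBDF2, an inactive rhomboid that guides the sheddase ADAM17, held 5 in each list over 30.5 kb, or 3.27 peaks of both lists per 10 kb. SDK2, a synaptic adhesion gene, held 7 DNAJC12KO and 3 WT peaks over 310 kb. LLGL2, the paralogue of LLGL1, held 3 DNAJC12KO and 4 WT peaks over 50.2 kb. In the middle segment, LRRC37A2 held 5 DNAJC12KO and 1 WT peaks over 676 kb. It belongs to a duplicated family, where reads may be placed on the wrong copy, and its record spans WNT9B, which held 3 of the 5, so its count is uncertain.

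**Figure D5:**
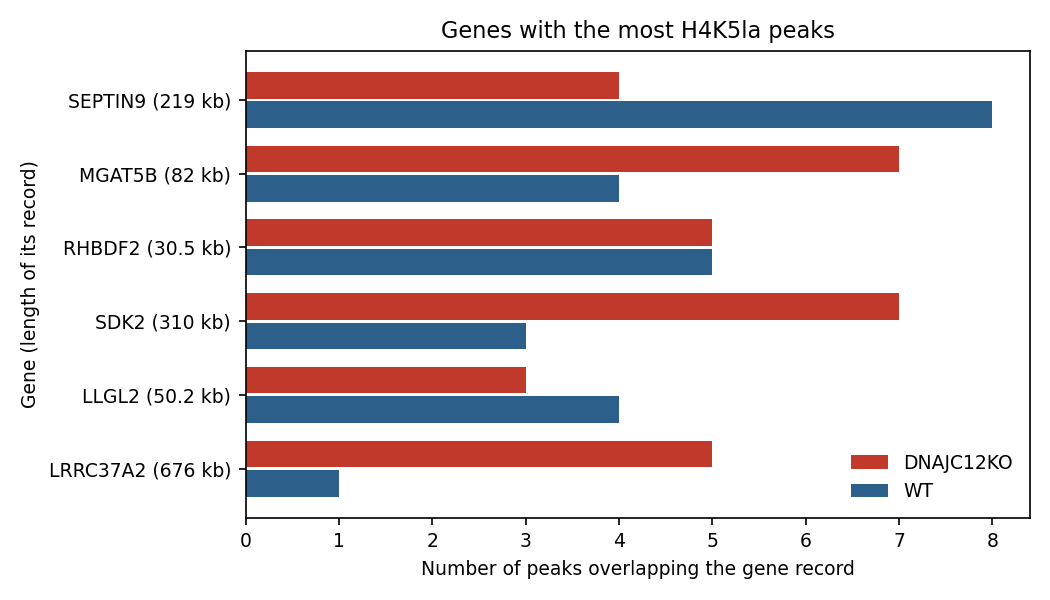
Number of H4K5la peaks that overlap the record of the 6 genes with the most peaks over both lists, with DNAJC12KO cells in red above WT cells in blue and the length of each record in brackets. Counts run from 3 to 7 in DNAJC12KO cells and from 1 to 8 in WT cells.

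Of the genes with a peak at an end on 17q, those led by DNAJC12KO peaks alone were OTOP2, a proton channel, and its neighbour USH1G, a scaffold of hair cells, which share 1 peak of fold 4.28. TTYH2, of a family of anion channels, followed with a fold of 4.20, and SAP30BP with 3.95. GRN, which encodes progranulin, shared 1 peak of fold 4.22 with FAM171A2. Those led by WT peaks alone at an end were ITGA3, an integrin of the laminin receptors (4.25), and CDK3 and EVPL, which share 1 peak (4.17). CSF3, the granulocyte growth factor, and MED24, a Mediator subunit, share 1 WT peak (4.28). ITGA3 also held a DNAJC12KO peak inside its record (3.31), so it differs between the lists at its end and not over the whole gene.

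The leading shared genes were all distal. AANAT, the enzyme before the last step of melatonin synthesis, and its neighbour RHBDF2 shared peaks of fold 3.89 in DNAJC12KO cells and 3.68 in WT cells. MGAT5B had 4.10 in DNAJC12KO cells and 3.58 in WT cells, LLGL2 had 3.14 and 3.64, CDR2L had 3.38 and 3.48, and SMIM5 had 3.39 and 3.49. On 17p the genes with DNAJC12KO peaks alone were led by SERPINF2, which encodes alpha-2-antiplasmin (4.33), and GEMIN4, of the SMN complex (3.89). ENO3, the muscle enolase, and SPAG7 share 1 DNAJC12KO peak (3.99). Those with WT peaks alone were led by NEURL4 (4.01), YBX2, a germ cell RNA-binding protein (3.95), and CCDC42 and SPDYE4, which share 1 peak (3.93).

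The most crowded 1 Mb bins of 17q were 75 to 76 Mb, with 17 DNAJC12KO and 22 WT peaks among 35 genes, 76 to 77 Mb, with 18 and 15 among 26, and 74 to 75 Mb, with 13 and 6 among 26. On 17p they were 4 to 5 Mb, with 7 DNAJC12KO and 3 WT peaks among 32 genes, 1 to 2 Mb, with 7 and 2 among 20, and 17 to 18 Mb, with 5 and 3 among 12. Gene number alone did not order the bins. The bin from 41 to 42 Mb, with 61 genes, held 0 peaks in either list, and it lay in a gap of 2.08 Mb with 93 genes. The bins from 40 to 41 Mb (30 genes) and from 35 to 36 Mb (27 genes) held 0 DNAJC12KO peaks and 1 WT peak each. The longest gap on 17p ran from 10.1 to 17.1 Mb with 46 genes, and the longest within 17q from 29.6 to 34.6 Mb with 43. Across 73 bins the correlation of peaks with genes was 0.324 by Pearson and 0.461 by Spearman in DNAJC12KO cells, and 0.302 and 0.449 in WT cells. Bins of 1 list share a library, and neighbouring bins are not independent.

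The gene lists were read against the 12.5% of DNAJC12KO and 10.2% of WT genes of the stretch that carried a peak in the record or within 3 kb. They were drawn up with earlier results of these data known, so their counts are no independent evidence on a group. Of 62 neuronal and synaptic genes, 21 (33.9%) carried a DNAJC12KO peak and 14 (22.6%) a WT peak, CRHR1 and MAPT among both. The list is broad, and the members with a peak included OTOP2, OTOP3, DNAI2, the axonemal dynein DNAH2 and UNC13D, known for granule release of immune cells. At an end 4 (6.45%) carried a DNAJC12KO and 5 (8.06%) a WT peak, against 5.13% and 4.94% of the stretch. OTOP3, DNAH2 and the other carriers of this list beyond its first 4 were named after their values were seen. Of 19 genes listed as integrin and matrix genes, 7 carried a DNAJC12KO and 6 a WT peak. Among them was ITGB4, the integrin of hemidesmosomes (4.11 in DNAJC12KO cells and 3.56 in WT cells). FBF1, counted in both genotypes, is a centriole protein and neither an integrin nor a matrix gene. Of 19 motor and myosin genes, 7 carried a DNAJC12KO peak and 1 a WT peak. MYO15B was in both lists, while MYO19, a mitochondrial myosin (3.74), MYO1C (3.77) and KIF19 (3.51) had DNAJC12KO peaks alone. Gene length was not taken into account in any of these counts. Of 34 growth factor, WNT, Notch and hedgehog genes, 8 carried a DNAJC12KO peak and 5 a WT peak, PEMT and LLGL1 being in both. Neither is known foremost for such signalling: PEMT methylates a phospholipid and is counted among the metabolic genes too, and LLGL1 is a cell polarity gene. WNT9B, a WNT ligand, carried 3 DNAJC12KO peaks, the strongest of fold 3.99.

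In the HOXB cluster of 10 homeobox genes, HOXB5 and HOXB6 shared 1 DNAJC12KO peak (3.51), and 0 carried a WT peak. Of 26 genes listed as other transcription factors of development, 5 (19.2%) carried a DNAJC12KO and 3 (11.5%) a WT peak. The DNAJC12KO carriers included TBKBP1, an adaptor protein and no transcription factor, which was named after its values were seen. DLX3, a homeobox gene of skin and tooth, was in both (3.49 in DNAJC12KO cells and 3.45 in WT cells). SP2 had a DNAJC12KO peak alone (3.63), and DLX4 (3.68) and TBX4 (3.61) WT peaks alone. Of 12 nuclear receptor and STAT genes, STAT5A and STAT5B shared 1 DNAJC12KO peak (3.61), which has the lowest background of that list, and MED24 had the WT peak given above.

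Metabolic genes stood near the share of the stretch, with 4 of 44 in DNAJC12KO cells and 5 in WT cells. Of 38 chromatin genes, 2 carried a peak in each list, SMARCD2 (3.37 in DNAJC12KO cells and 4.25 in WT cells) and RAI1 (4.00 and 3.57). Of 19 genes discussed for 17q gain in neuroblastoma, NGFR, a neurotrophin receptor (3.72), and PRKCA, a protein kinase C (3.37), had DNAJC12KO peaks, and PSMB3, a proteasome subunit (3.48), a WT peak. Of 24 housekeeping and ribosomal genes, 0 carried a DNAJC12KO peak and 1, PSMB3, a WT peak. Of the 16 CC chemokines listed, CCL18 carried a DNAJC12KO peak (3.75) and 0 a WT peak. None of the 27 type I keratins carried a peak in either list; they are crowded into the gene-rich proximal bins.

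Of 84 annotated miRNA hairpins on the stretch, 4 lay within 3 kb of a peak. No share over all hairpins of the genome is given, so this count cannot be read as particular to the stretch. MIR6776 on 17p was near a peak of each list (3.67 in DNAJC12KO cells and 3.82 in WT cells). MIR4314 was near a WT peak (3.75), and MIR6165 (3.72) and MIR142 (3.27) were near DNAJC12KO peaks.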

How the data were processed

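H4K5la chromatin immunoprecipitation sequencing was done in SH-SY5Y cells, with 1 immunoprecipitated and 1 input library each for DNAJC12KO and WT. The submitters' processing notes name MACS2 2.2.6 and the build hg38. How reads were aligned, filtered and scaled, and whether the input served as control, is not given in the sources used here. Per the labels' protocols an IgG control and spike-in chromatin were part of the assay; neither was analysed here. The authors deposited 1 broad peak list per genotype, called per library, and each was taken as the list of the immunoprecipitated library. Per peak, the deposited values are a score (not used), a fold enrichment (a linear ratio over background), and the authors' −log10 p and −log10 q, averaged over the peak. The lowest −log10 q is about 1, so a place without a peak is one below the threshold or not searched. Depth is unknown, and columns of other samples numbered 0.

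Genes, promoters and miRNAs came from RefSeq on GRCh38.p14, of which 19866 protein-coding genes were used; records on scaffolds, which the table lists under their chromosome with scaffold coordinates, were left out. Its gene records carry no strand; the strand and start of 753 of 1053 genes came from the promoter table. Of those starts, 657 lie within 1 bp of an end of the record. Peaks were placed by their centre, and coordinates are 1-based. A gene carried a peak where at least 1 bp of it lay within 3 kb of an end. Background b was solved from (k + 1)/(b + 1) = fold, with the Poisson upper tail of the pileup k equal to p, taking the larger solution; it is approximate. The step in background was the least-squares split of its logarithm. Density intervals are exact Poisson, ratio intervals exact conditional, shares Clopper-Pearson, and medians have order-statistic intervals, at 95%. Calculations were tested on simulated data and used Python 3.11.15, numpy 2.4.6, scipy 1.17.1, pandas 2.3.3 and matplotlib 3.10.9. With 1 library per genotype no test was made.

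The stretch, its segments and the 13 gene lists (345 symbols, 324 on the stretch) were chosen with earlier results of these data known. Named genes are, by −log10 q, the first 6 on 17q and the first 4 on 17p among genes marked at an end, in each of the DNAJC12KO-only, WT-only and shared sets; the 6 genes with the most peaks; up to 4 members of each list; the genes at the 5 strongest peaks of each list and arm; and genes of the 3 most crowded bins of each arm, not all of which are printed. A gene among the first 6 of the WT-only set is not reported here. STH, DNAI2 and the miRNAs are printed as all items of their kind that a peak covered or came near. Alternatives were other windows, thresholds, overlaps, list lengths and limits of 17q.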

Additional observations from a re-analysis of the deposited data

Results flagged for a closer look

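A single DNAJC12KO peak (1 peak, against 0 in the WT list) lay between the limits of the arms, in a region that entered no comparison of 17q with 17p. It spanned chr17:26885350-26885660, with a fold of 1.85, a −log10 q of 2.43 and an inferred background of 41.8 fragments. The median background of DNAJC12KO peaks was 2.15 on 17q and 1.60 on 17p, and their lowest fold was 2.81 and 3.38. Whether reads were placed correctly in this region beside the centromere was not tested. The nearest protein-coding gene, WSB1, lay 408 kb away, and the nearest WT peak 1484 kb away.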

How the results depend on the processing

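Of 148 alternatives over 38 results, 89 were classed as keeping the value, 58 as moving it and 1 as turning its direction. Where a value had an interval, keeping meant staying within it, and for counts within 1.5 times. Splits were classed otherwise: the DNAJC12KO split for −log10 q from 2 up, at 74.2 Mb, counted as kept though outside its range. The background ratio across the step has no interval here. Where not stated, the cause was not tested. With lists of equal length, the DNAJC12KO over WT ratio on 17q was 0.888, below 1, and the background ratio beyond and before the step in DNAJC12KO cells was 1.48. With all of 17q taken, the density ratio of 17q to 17p was 3.13 in DNAJC12KO cells and 4.25 in WT cells. For peaks whose −log10 q reached 2, the WT ratio was 4.45 per Mb and 4.60 per gene, the DNAJC12KO over WT ratio on 17p was 6.0, and the WT split lay at 76.0 Mb; 17p then held 1 WT peak, so its WT medians gave no value. Per gene, the split lay at 45.7 Mb in DNAJC12KO cells and 69.5 Mb in WT cells. The overlap share in DNAJC12KO and WT cells was 0.985% and 1.42% with 50% of both peaks required, 29.6% and 39.7% within 10 kb, and 0% in both under either stricter threshold (−log10 q from 2, or fold from 4). Genes at an end numbered 21 and 26 with a window of 1 kb, 127 and 116 with 10 kb, 132 and 107 with peaks inside the record, 12 and 20 at the start alone, 8 and 6 for −log10 q from 2 up, and 7 and 9 for fold from 4 up. Centres at a gene end made up 8.87% and 13.5% with 1 kb, 54.2% and 61.0% with 10 kb, and 36.4% in WT cells for −log10 q from 2 up. Over the 5 alternatives chosen for it after seeing the data (a fold between 3.4 and 3.8, peaks joined within 10 kb, gene-end peaks alone, no peaks beyond the density step, equal lists), the background ratio ran between 1.31 and 1.48 in DNAJC12KO cells and between 1.23 and 1.30 in WT cells. No paired analysis was possible because each genotype had 1 library and no result came from a test. Depth was unknown, so peak numbers cannot be told apart from depth.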
